A study of Mus musculus with 40 samples.

Results

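Potassium channel genes were followed across the brain of newborn mice after inflammation, hypoxia-ischaemia and treatment with the peptide IDR-1018. A gene was taken as a member when its symbol was Kcn, 1 or more letters and a number, and when a probe set carried that symbol alone. By this rule 87 of the 19937 genes on the array were members. Their symbols are carried by 90 probe sets, and 1 per gene was used, that of the highest mean signal. By the role of the protein, 35 members encode pore subunits of voltage-gated channels, 15 encode inward rectifiers, 14 encode leak channels (Kcnk) and 11 encode auxiliary subunits. The other 12 (Kcnn, Kcnma, Kcnmb, Kcnt and Kcnu) were grouped as calcium- or sodium-activated channels with their partners. That group is set by the symbol, not by what opens each channel. The rule reads symbols and no measured value, but it was chosen with earlier results of these data known.

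The data came from Affymetrix arrays hybridised with total RNA from postnatal day 9 C57/Bl6 brain, in 8 groups of 5 arrays. Mice labelled Vehicle had received vehicle 10 h before removal of the brain, mice labelled IDR the peptide IDR-1018 10 h before removal, and mice labelled LPS lipopolysaccharide, a bacterial cell-wall component, 6 h before removal. The LPS+IDR mice had received IDR-1018 4 h ahead of LPS and were sampled 6 h after the LPS. The 4 groups labelled LPS/HI had vehicle or IDR-1018 first and LPS 4 h later. Hypoxia-ischaemia (HI) was applied 14 h after the LPS, and brains were removed 6 h after HI. The left hemisphere is labelled injured and the right uninjured. IDR-1018 is a synthetic immunomodulatory peptide, and the series asks whether it alters the response of the newborn brain to this combined insult. Samples of the groups without HI are labelled uninjured brain, with no hemisphere named, and their times differ from those of the LPS/HI groups, so that side, time, LPS and HI cannot be told apart in comparisons with Vehicle or IDR. The labels do not say that each array is a separate animal, and the p-values measure the spread between arrays.

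Potassium channels let potassium leave the cell along its gradient and so set the resting potential, shape the repolarisation of the action potential and limit repetitive firing. Voltage-gated channels are tetramers of pore subunits, and some members of the family, called silent subunits, form no channel alone but change the behaviour of their partners. Inward rectifiers and leak channels hold the resting potential, and in astrocytes they also take up the potassium released by active or injured neurons.

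All 87 members had a RefSeq entry with the same symbol, and 66 had at least 1 promoter window in the RefSeq table (build GRCm38.p6), which gave 91 windows of the 250 bases before a transcript start. The windows shown belong to genes that were lower in the injured hemisphere and have 1 window each, Kcna4 at chr2:107290339-107290588 on the plus strand, Kcnd2 at chr6:21215096-21215345 on the plus strand and Kcnh5 at chr12:75177333-75177582 on the minus strand. They are printed 5′ to 3′ on the strand of the gene, with capitals for GGGCGG (the GC box) and TGACG (the core of the cAMP response element), each on either strand.
Kcna4: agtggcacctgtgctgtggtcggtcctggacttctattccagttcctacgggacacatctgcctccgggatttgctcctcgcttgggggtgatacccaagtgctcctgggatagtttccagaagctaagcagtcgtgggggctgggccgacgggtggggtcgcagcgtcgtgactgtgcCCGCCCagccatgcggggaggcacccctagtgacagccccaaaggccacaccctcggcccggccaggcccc
Kcnd2: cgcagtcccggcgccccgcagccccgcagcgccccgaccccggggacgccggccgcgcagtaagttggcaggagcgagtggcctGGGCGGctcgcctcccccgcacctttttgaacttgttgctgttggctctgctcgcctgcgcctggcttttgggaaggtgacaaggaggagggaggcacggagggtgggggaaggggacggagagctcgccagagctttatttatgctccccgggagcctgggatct
Kcnh5: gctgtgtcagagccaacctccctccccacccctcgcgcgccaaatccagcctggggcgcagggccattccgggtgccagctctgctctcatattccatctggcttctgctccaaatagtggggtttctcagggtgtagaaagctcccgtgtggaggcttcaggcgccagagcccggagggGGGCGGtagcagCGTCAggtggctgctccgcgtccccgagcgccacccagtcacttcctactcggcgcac
Each of these windows held 1 GC box, and the Kcnh5 window also held 1 TGACG core on the opposite strand. Kcnip2, also called lower, has 1 window too, not shown here, with 2 GC boxes. Over the 14 windows of the 7 genes called lower between hemispheres that have a window, 42.9% held a GC box. Of the same windows 7.14% held a TGACG core, and their median GC content was 59.8%. GC content was 65.2% in Kcna4, 68.8% in Kcnd2 and 65.6% in Kcnh5, against a median of 58.4% over the member windows and 52.4% over all 32851 windows of the table. A GC box was present in 44.0% of the member windows and in 32.7% of all windows, the TGACG core in 15.4% and 17.8%, and TATAAA in 3.3% and 12.4%. The whole palindrome TGACGTCA, which contains the core, was in none of the 91 member windows and in 1.55% of all windows, and CACGTG was in 6.59% and 6.02%. These counts describe letters in the windows and were not tested.

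Values are log2 RMA signals, so that a difference of 1 is a doubling, and a signal ranks arrays for 1 probe set but not probe sets against each other. Over the 40 arrays the mean signal of the members ran from 5.00 for Kcnj1 to 11.38 for Kcnd2, and 6 members (Kcnj1, Kcnu1, Kcne3, Kcne1, Kcnk18 and Kcnk5) averaged under 6. Signals of different probe sets do not order transcript levels; by the rule that names 1 member of each other subfamily from its brightest probe set, the members named are Kcna2, Kcnab2, Kcnb2, Kcnc2, Kcne2, Kcnf1, Kcng1, Kcnh1, Kcnip3, Kcnj3, Kcnk1, Kcnma1, Kcnmb4, Kcnn3, Kcnq5, Kcns1, Kcnt2 and Kcnv1. Between the lowest and the highest of the 8 group means the median member spanned 0.22, and 6 members (Kcnt2, Kcnv1, Kcna5, Kcnh5, Kcne3 and Kcnj13) spanned more than 0.5. For 36 of the 87 members the lowest of the 8 group means was that of an injured group, and for 17 the highest was. The matching spans and counts over all genes are not given here, so these values do not show a trait particular to the members.

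Array medians were between 6.99 and 7.13. One injured array without peptide, number 3, carried signal of both Xist and Y-linked genes and stood apart from the others. Counts of called members that use it are therefore given with and without it, while other counts, medians and marker sums include it. The other arrays showed signal of either Xist or the Y-linked genes, unevenly over the groups: all 5 LPS arrays, but 1 of the 5 IDR arrays, were of the Xist class. All 12 neuronal markers listed were measured, and the lowest mean of any of them in any group was 9.45, well above the lowest values on the arrays.

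The comparison of the injured with the uninjured hemisphere asks how channel expression differed between the sides of the LPS/HI brain. The injured side is the left throughout, so side and injury cannot be told apart here. Without peptide, 7 of the 87 members were lower in the injured hemisphere and none was higher. All 7 encode voltage-gated pore subunits: Kcnv1, Kcnh5, Kcna4, Kcnq5, Kcnd2, Kcnc2 and Kcnb2 fell by 18.7% to 30.3%. A gene was called at an adjusted p under 0.05, from limma with Benjamini-Hochberg adjustment over all 19937 genes. The 7 called lower are 8.05% of the members, against 0.813% of all genes called lower, 2.18% called higher and 2.99% called in all. In 9 members (10.3%, against 1.61% of genes) every injured array was below every uninjured one, and 24 members (27.6%, against 5.78% of genes) were lower at an unadjusted p under 0.05. The median difference was -0.03 over the members and 0.01 over all genes, and 62.1% of members and 45.3% of all genes were below 0. In bulk tissue, fewer cells of a type and less RNA per cell cannot be told apart.

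**Figure D1:**
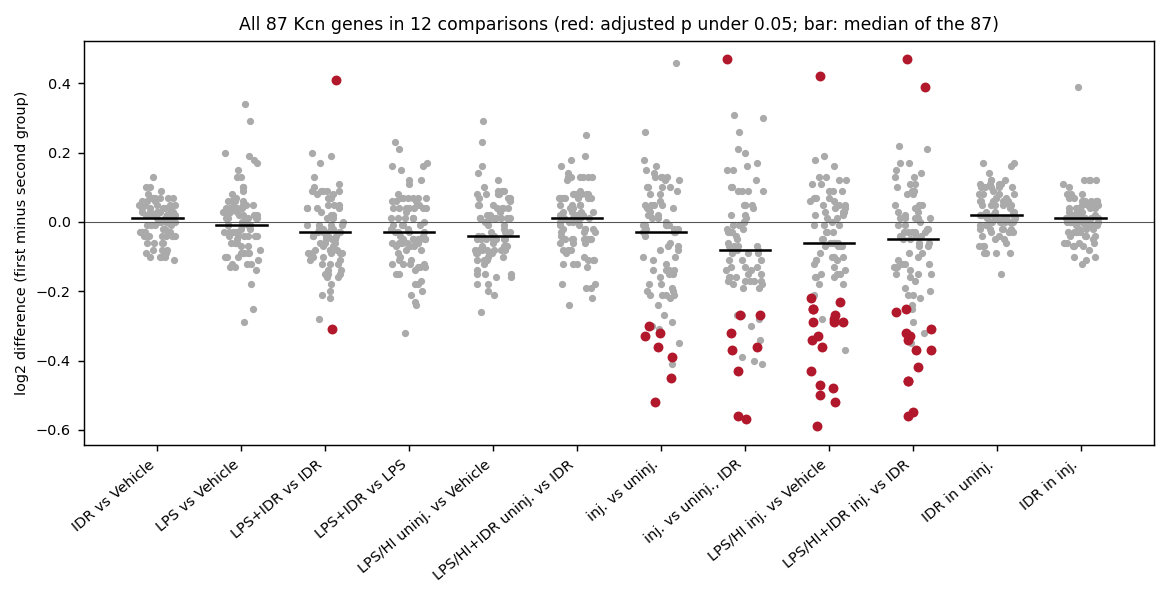
Log2 difference of each of the 87 members (points) in 12 comparisons of 5 against 5 arrays, with those past an adjusted p of 0.05 in red and the median of the 87 as a bar. Most red points lie below 0, and they occur in the comparisons with an injured group and, for 2 genes, in LPS+IDR against IDR.

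Kcnv1, a silent subunit that joins delayed rectifiers of the Kcnb group, showed the largest fall. Its 5 injured arrays without peptide read 9.77, 9.86, 9.79, 10.09 and 9.77, and the uninjured arrays of the same numbers 10.55, 10.34, 10.19, 10.52 and 10.27. Every injured array was below every uninjured one. The difference was -0.52 ± 0.09 (SE, n = 5 per group; limma adjusted p = 0.00618), a fall to 0.697 of the uninjured signal. With peptide the injured arrays read 9.95, 10.02, 9.76, 9.81 and 9.94 and the uninjured arrays 10.67, 10.65, 10.27, 10.31 and 10.45, again without overlap. That difference was -0.57 ± 0.09 (limma adjusted p = 0.00509). Vehicle arrays read 10.47, 10.32, 10.63, 10.35 and 10.46, all above the injured arrays of both arms. The call of Kcnv1 held in both arms whichever array was left out.

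Kcnh5, a voltage-gated pore subunit of the ether-à-go-go group, read 9.47, 9.34, 9.43, 9.33 and 9.45 in the injured arrays without peptide and 10.03, 9.96, 9.50, 9.83 and 9.97 in the uninjured arrays. The groups did not overlap, although uninjured array 3 was close to the injured ones. The difference was -0.45 ± 0.09 (limma adjusted p = 0.0183), and the call held in 9 of the 10 fits that each left out 1 array. With peptide the injured arrays read 9.35, 9.74, 9.21, 9.12 and 9.54 and the uninjured arrays 10.04, 10.04, 9.67, 9.94 and 10.08. Here injured array 2 was above uninjured array 3. The difference was -0.56 ± 0.12 (limma adjusted p = 0.0229), and the test of the difference between the arms missed the threshold (-0.11, 95% interval -0.43 to 0.21). The call with peptide held in 4 of the 10 fits with an array left out.

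Kcna4 encodes a rapidly inactivating pore subunit found on axons. It read 8.58, 8.68, 8.74, 8.76 and 8.63 in the injured arrays without peptide, all below the uninjured arrays at 9.03, 9.23, 9.03, 9.07 and 8.98. The difference was -0.39 ± 0.07 (limma adjusted p = 0.00673), and it was past the threshold whichever array was left out. With peptide the injured arrays read 8.51, 8.67, 8.79, 8.87 and 8.59 and the uninjured arrays 9.08, 9.00, 8.94, 9.10 and 9.18, without overlap (-0.37 ± 0.08, limma adjusted p = 0.0244), but that call held in only 4 of the 10 fits with an array left out.

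Kcnd2 encodes the main dendritic pore subunit of the fast transient current, and Kcnip2 a calcium-binding partner of that channel. Kcnd2 read 11.25, 11.17, 11.07, 11.24 and 10.96 in the injured arrays without peptide and 11.64, 11.45, 11.42, 11.55 and 11.27 in the uninjured ones. All injured arrays were lower, the closest at 11.25 against 11.27, and the difference was -0.33 ± 0.08 (limma adjusted p = 0.0481). This call held in 1 of the 10 fits with an array left out. With peptide Kcnd2 differed by -0.30 (limma adjusted p = 0.0787), and the test between the arms missed the threshold (0.03, 95% interval -0.21 to 0.28). Kcnip2 was called with peptide (-0.27 ± 0.06, limma adjusted p = 0.0438) and at -0.14 without it (limma adjusted p = 0.406). With peptide its injured arrays read 9.30, 9.25, 9.38, 9.45 and 9.39 and its uninjured arrays 9.64, 9.57, 9.62, 9.54 and 9.73, and the groups did not overlap. The test between the arms missed the threshold for Kcnip2 as well (-0.12, 95% interval -0.32 to 0.07), and its call with peptide held in 1 of the 10 fits with an array left out.

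Kcnb2 encodes a pore subunit of delayed rectifiers, the channels that Kcnv1 joins. The 5 injured arrays without peptide read 9.35, 9.27, 9.17, 9.24 and 9.13 and the uninjured arrays 9.53, 9.58, 9.64, 9.51 and 9.38, which did not overlap. The difference was -0.30 ± 0.07 without peptide and -0.32 ± 0.08 with it (limma adjusted p = 0.0307 and 0.0441). With peptide the injured arrays at 9.34, 9.19, 9.13, 9.40 and 9.37 were again all below the uninjured arrays at 9.78, 9.63, 9.53, 9.60 and 9.49. The calls of Kcnb2 held in 2 of the 10 fits with an array left out in the arm without peptide and in 1 of 10 in the arm with it.

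Kcnq5 contributes to the M-current, a slow potassium current that muscarinic receptors suppress. It read 10.21, 10.24, 10.14, 10.48 and 10.22 in the injured arrays without peptide and 10.65, 10.70, 10.39, 10.76 and 10.57 in the uninjured arrays. Injured array 4 was above uninjured array 3, so the groups overlapped, and the difference was -0.36 ± 0.08 (limma adjusted p = 0.0359). This call held in 2 of the 10 fits with an array left out. With peptide the injured arrays read 10.24, 10.37, 10.18, 10.06 and 10.32 and the uninjured arrays 10.74, 10.69, 10.57, 10.68 and 10.67. Those did not overlap, and the difference of -0.43 ± 0.07 (limma adjusted p = 0.00627) was past the threshold whichever array was left out. Kcnc2, a pore subunit of fast-spiking interneurons, read 9.01, 8.83, 8.97, 9.04 and 8.78 in the injured arrays without peptide against 9.28, 9.29, 9.18, 9.30 and 9.16 in the uninjured arrays. The groups did not overlap (-0.32 ± 0.07, limma adjusted p = 0.024), and with peptide Kcnc2 differed by -0.27 (limma adjusted p = 0.181). The test between the arms gave 0.05 (95% interval -0.20 to 0.29), and the call without peptide held in 5 of the 10 fits with an array left out.

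**Figure D2:**
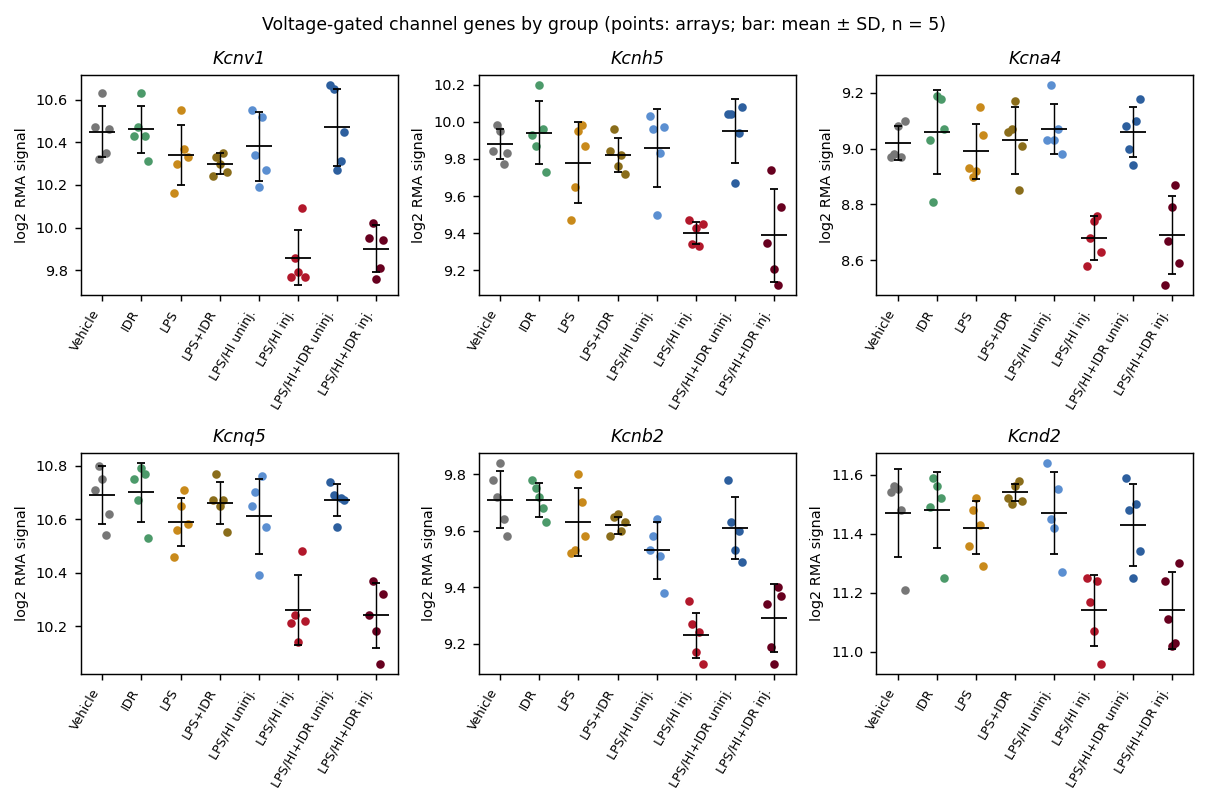
Log2 RMA signal of 6 voltage-gated pore subunit genes in the 8 groups, 1 point per array, with the group mean ± SD (n = 5). In each panel both injured groups, at the right of their pairs, have the lowest group means, as with Kcnv1 at 9.86 and 9.90 against 10.30 or more in the other groups.

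With peptide, 9 members differed between the hemispheres, 8 lower (9.2% of members, against 0.702% of all genes called lower) and 1 higher (1.15%, against 1.8% of all genes), where 2.5% of genes were called in all. In 8 members (9.2%, against 1.94% of genes) all injured arrays were below all uninjured ones, and 19 (21.8%, against 5.78%) were lower at an unadjusted p under 0.05. The median difference was -0.08 over the members and 0.00 over all genes, and 70.1% of members and 50.1% of genes were below 0. Of the 7 and 8 members called lower in the arms, 5 were in both (71.4% and 62.5% of the lists): Kcna4, Kcnb2, Kcnh5, Kcnq5 and Kcnv1. The arms share no array. The matching overlap of all genes called lower is not given here, so the sharing is not shown to be particular to the members. Kcnn2, a small-conductance calcium-activated channel that contributes to the afterhyperpolarisation, and Kcnk2, a leak channel opened by stretch and lipids, completed the lower list beside Kcnip2. For Kcnn2 the injured arrays with peptide read 8.45, 8.80, 8.54, 8.39 and 8.64 and the uninjured arrays 8.94, 8.99, 8.81, 8.81 and 9.06. They did not overlap, the closest being 8.80 and 8.81, and the difference was -0.36 ± 0.09 (limma adjusted p = 0.0441). Without peptide Kcnn2 differed by -0.35, just outside the threshold (limma adjusted p = 0.0533). Kcnk2 fell from 9.32, 9.43, 9.20, 9.18 and 9.41 in the uninjured to 8.99, 9.01, 9.02, 9.06 and 9.09 in the injured arrays with peptide, without overlap (-0.27 ± 0.07, limma adjusted p = 0.0491). The calls of Kcnn2 and Kcnk2 each held in 1 of the 10 fits with an array left out, and the tests between the arms gave -0.01 (95% interval -0.27 to 0.25) and -0.13 (-0.32 to 0.06).

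**Figure D3:**
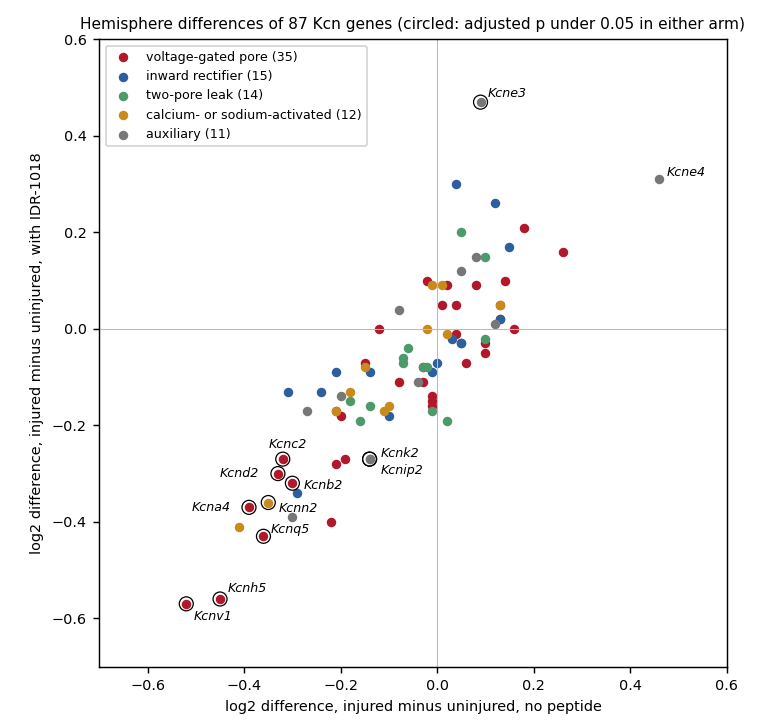
Log2 difference between the injured and the uninjured hemisphere of the 87 members without peptide (horizontal) and with IDR-1018 (vertical), coloured by role, where the colour named two-pore leak is the Kcnk group. Circled genes were past an adjusted p of 0.05 in at least 1 arm; Kcnv1 at -0.52 and -0.57 and Kcnh5 at -0.45 and -0.56 lie farthest to the lower left.

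The test of whether the hemisphere difference itself depended on the peptide called 0 of the 87 members and 0 of the 19937 genes with limma, that is 0.0% of genes (unadjusted p under 0.05 in 2 members and 361 genes, 2.3% and 1.81%). The smallest p belonged to Kcne3 and Kcnj5. For the members, the 95% half-width of that difference had a median of 0.25, so smaller effects of the peptide could not be seen. Kcnv1 differed by -0.05 (95% interval -0.32 to 0.21) and Kcna4 by 0.02 (-0.19 to 0.22). With the peptide compared with vehicle directly, 0 members and 0.0% of genes were called in the injured hemisphere, and likewise in the uninjured one, by limma and under every alternative run. At an unadjusted p under 0.05 there was 1 member in the injured hemisphere (Kcne3; 1.15% of members, against 277 genes or 1.39%). In the uninjured hemisphere there were 2 (Kcng1 at 0.14 and Kcne4 at 0.17; 2.3% of members, against 376 genes or 1.89%).

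Same-numbered hemispheres of the arm without peptide deviated together, and a fit with the number as a block called 21 members there: 19 lower (21.8% of members, against 3.89% of all genes) and 2 higher (2.3%, against 6.3%). The 7 genes above were among the 19. The 12 added were Kcna2, Kcnh3, Kcnh7 and Kcnq3 of the voltage-gated pores, the inward rectifiers Kcnj3, Kcnj10 and Kcnj13, the leak channel Kcnk6, the ion-activated channels Kcnn2 and Kcnt2, and the auxiliary subunits Kcnab1 and Kcnip4. Kcnt2, a channel opened by intracellular sodium, fell by 0.41 (SE 0.06, limma with the block, adjusted p = 0.00378); unblocked, the same difference had an adjusted p of 0.0584. The 5 number-wise differences of Kcnt2 were -0.46, -0.50, -0.17, -0.50 and -0.44. Kcnj10, the potassium-buffering channel of astrocytes, fell by 0.24 (SE 0.05, limma adjusted p = 0.0237 with the block), and Kcnj3, a channel opened by G proteins, fell by 0.29 (SE 0.06, limma adjusted p = 0.0162 with the block). With peptide the block also called Kcnt2 and Kcnj3, but not Kcnj10 (-0.13, limma adjusted p = 0.412). Kcna2, Kcnh3, Kcnq3, Kcnj13, Kcnk6 and Kcnip4 were not called there either. Without peptide, the injured array was lower for all 5 numbers in 28 of the 87 members (32.2%), against 10.1% of all genes. In 10 members (11.5%) it was higher for all 5, against 13.7%.

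**Figure D4:**
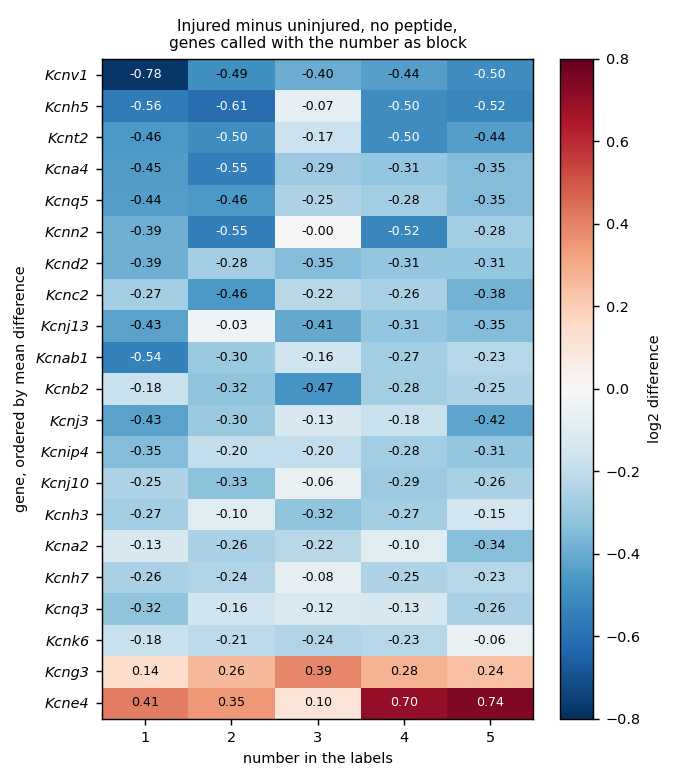
Log2 difference of the injured from the uninjured array of the same number, without peptide, for the 21 members called with the number as a block, ordered by their mean. Blue cells (lower in the injured hemisphere) fill 19 rows, from Kcnv1 at -0.78 to -0.40 downwards, and red cells the rows of Kcng3 and Kcne4; number 3 holds many of the palest cells.

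Without the injured array 3, the unblocked fit called 5 members in the arm without peptide, 4 lower (4.6%, against 0.883% of all genes) and 1 higher (1.15%, against 2.33%). Kcnv1, Kcna4, Kcnh5 and Kcnc2 were still lower, Kcnq5, Kcnd2 and Kcnb2 moved outside the threshold at -0.33, -0.31 and -0.28 (limma adjusted p = 0.0704, 0.0849 and 0.0556), and Kcne4 became called higher. With the block and both arrays numbered 3 left out, 19 members were called, 17 lower (19.5%, against 4.87% of all genes) and 2 higher (2.3%, against 7.47%). Leaving out any 1 array gave between 2 and 10 called members in this arm and between 2 and 6 with peptide. The fewest without peptide, 2, came without injured array 2, and the most, 10, without uninjured array 3. With peptide the fewest, 2, came without uninjured array 1 or 5. Apart from injured array 3, the shares of all genes called in these fits are not given here.

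Markers of other cell types moved with these results in part. A summed signal is the log2 of the added unlogged signals of a list, so its brightest genes weigh most. The summed signal of the 12 neuronal markers was 15.39 to 15.43 in the injured and 15.49 to 15.56 in the uninjured arrays without peptide, and 15.37 to 15.46 against 15.47 to 15.54 with it. Neither pair of ranges overlapped. By gene, 1 of the 12 was called lower in each arm, Neurod6, a transcription factor of cortical pyramidal neurons (-0.73 ± 0.14 and -0.77 ± 0.16, limma adjusted p = 0.0112 and 0.0255), and the median of the 12 was -0.10 and -0.08. The summed signal of the 7 striatal markers was also lower in all injured arrays, 12.61 to 12.70 against 12.79 to 13.00 without peptide and 12.54 to 12.67 against 12.78 to 13.03 with it, and Gpr6 was called lower in both arms. The summed signals of the astrocyte, oligodendrocyte, microglial, endothelial, pericyte, choroid plexus, meningeal, neutrophil and monocyte, cerebellar, and brainstem and thalamus lists overlapped between the hemispheres in both arms. Of their genes, Fgfr3, Pdgfra, P2ry12 and Slc6a13 were called lower without peptide, Penk of the striatal list and Neurod1 of the cerebellar list were called lower with peptide, and Pecam1 (both arms) and Cdh5 (with peptide) of the endothelial list were called higher. The part of these shifts in the fall of the channel genes was not tested.

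Against Vehicle, the injured hemisphere without peptide showed 19 changed members: 18 lower (20.7%, against 3.89% of all genes called lower) and 1 higher (1.15%, against 4.45%), with 8.34% of genes called in all. The injured hemisphere with peptide, set against IDR alone, showed 15: 13 lower (14.9%, against 2.35%) and 2 higher (2.3%, against 3.52%), with 5.87% of genes called in all. These comparisons share the injured arrays with those between hemispheres but no array with each other. All 13 called lower in the second were also called lower in the first, where they made up 72.2%. The matching overlap over all genes is not given here. Member medians were -0.06 and -0.05, against -0.01 over all genes in both, and 64.4% of members were below 0 in each, against 54.5% and 52.3% of all genes. The groups did not overlap, injured lower, in 15 members (17.2%, against 4.28% of genes) without peptide and in 10 (11.5%, against 3.22%) with it. Without injured array 3 the first count was again 19, with 17 lower (19.5%, against 4.33% of genes) and 2 higher (2.3%, against 4.66%). With Xist as a covariate it was 9 (4.6% of all genes called), and leaving out Vehicle array 1, 2 or 3 gave 11, 10 or 8. For the second, leaving out IDR array 1, 2, 3 or 4 or injured array 2 gave 6, 7, 6, 5 or 7. The shares of all genes called without these Vehicle, IDR or injured arrays are not given here. 

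Marker lists moved with these counts in part. The median difference of a list from the control is given without and then with peptide. It was 0.04 and 0.02 for the microglial list, whose genes ran from -0.61 to 0.96 and from -0.63 to 0.92. For the others it was 0.22 and 0.15 (neutrophil and monocyte), -0.3 and -0.14 (meningeal), -0.16 and -0.08 (pericyte), -0.09 and -0.07 (neuronal), and -0.1 and -0.18 (striatal). The summed signals of the microglial list (11.84 to 12.13 in injured, 11.49 to 11.72 in Vehicle) and of the neutrophil and monocyte list (8.95 to 9.18 against 8.45 to 8.72) were higher in every injured array without peptide, and those of the meningeal list (12.39 to 12.60 against 12.69 to 12.83) and the pericyte list (12.12 to 12.23 against 12.32 to 12.42) lower. With peptide, the microglial list (11.71 to 12.10 in injured, 11.48 to 11.64 in IDR) and the neutrophil and monocyte list (8.87 to 9.16 against 8.51 to 8.83) were likewise higher in every injured array, and the meningeal list lower (12.46 to 12.60 against 12.65 to 12.83), while the pericyte list overlapped (12.13 to 12.34 against 12.26 to 12.37). The neuronal list was lower in every injured array of both comparisons (15.39 to 15.43 against 15.47 to 15.55 without peptide, 15.37 to 15.46 against 15.47 to 15.53 with it), and so was the striatal list (12.61 to 12.70 against 12.73 to 13.00 without peptide, 12.54 to 12.67 against 12.68 to 12.88 with it). By gene, Aif1, C1qa and C1qb of the 9 microglial markers were called higher and P2ry12 lower by limma in both comparisons. Without peptide, Gfap, Aldoc and Gjb6 of the 10 astrocyte markers and Abcb1a, Cdh5 and Pecam1 of the 9 endothelial markers were called higher and Slco1c1 lower, and with peptide Gfap, Cdh5 and Pecam1 were called higher. Ms4a6c and Plac8 of the neutrophil and monocyte list were called higher in both, and S100a8 with peptide. Called lower were Neurod6, Pdgfra and the choroid plexus marker Sostdc1 in both, Tubb3, Acta2, Cspg4, Rgs5, Ogn and Slc6a13 without peptide, and Gpr6 and Neurod1 with it. Mbp, a myelin gene, was called higher without peptide. The part of these shifts in the member counts was not tested.

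Among the pores, Kcnv1 was lower by 0.59 without peptide than in Vehicle and by 0.56 with peptide than in IDR; as differences these were -0.59 ± 0.08 and -0.56 ± 0.07 (limma adjusted p = 0.000376 and 0.000859). Kcnb2 differed by -0.48 ± 0.07 and -0.42 ± 0.07 (limma adjusted p = 0.000552 and 0.00248). The uninjured hemisphere was itself at 9.53 for Kcnb2, between Vehicle at 9.71 and the injured hemisphere at 9.23, and its difference from Vehicle, -0.18 ± 0.07, was not past the threshold (limma adjusted p = 0.596). Kcnh5, Kcnq5, Kcna4 and Kcnd2 were also lower in both, with changes from -20.5% for Kcnd2 without peptide to -31.7% for Kcnh5 with it. Kcng1, another silent partner of the Kcnb channels, was called in both at -0.27 and -0.26, but its hemispheres differed by only -0.01 without peptide, with uninjured arrays at 9.31 to 9.44 and Vehicle arrays at 9.55 to 9.86. Kcnd1 and Kcnh7 were called without peptide at -0.28 and -0.29, and with peptide they stood at -0.21 and -0.29 (limma adjusted p = 0.147 and 0.0935).

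Of the leak channels, Kcnk10, a close relative of Kcnk2, differed from the controls by -0.36 ± 0.06 without peptide and -0.37 ± 0.08 with it (limma adjusted p = 0.00124 and 0.0223). Injured arrays without peptide read 9.35, 9.47, 9.45, 9.44 and 9.39, uninjured arrays 9.55, 9.58, 9.67, 9.64 and 9.48, and Vehicle arrays 9.84, 9.72, 9.73, 9.84 and 9.77. These 3 groups did not overlap, although neither the step from Vehicle to the uninjured hemisphere (-0.20, limma adjusted p = 0.345) nor that between hemispheres (-0.16, adjusted p = 0.207) was past the threshold. Kcnk2 was lower by 0.23 and 0.31, with differences of -0.23 and -0.31 (limma adjusted p = 0.0405 and 0.00429). The sodium-activated Kcnt2 was lower in both, at -0.50 ± 0.08 and -0.46 ± 0.12 (limma adjusted p = 0.00106 and 0.0367). Injured arrays read 9.37, 9.49, 9.22, 9.32 and 9.12 for Kcnt2 without peptide, all below the Vehicle arrays at 9.81, 9.71, 9.95, 9.83 and 9.73, whereas the uninjured arrays at 9.82, 9.99, 9.39, 9.82 and 9.56 overlapped both. Kcnmb1, a partner of the large-conductance calcium-activated channel in smooth muscle, was at -0.29 and -0.25.

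Of the inward rectifiers, Kcnj3 was called in both at -0.25 and -0.32. Kcnj13, a channel of the choroid plexus, was called without peptide alone at -0.52 ± 0.13 (limma adjusted p = 0.0225); with peptide it was at -0.35 (adjusted p = 0.241), and the difference between the arms was not tested in this contrast. Its Vehicle arrays read 9.06, 9.02, 8.92, 8.99 and 8.38, the last inside the injured range of 8.07 to 8.51. Choroid plexus markers overlapped in their summed signal between these groups, at 12.44 to 12.78 in the injured and 12.56 to 12.71 in the Vehicle arrays, while 1 of the 9 measured, Sostdc1, was lower (-0.59 ± 0.09, limma adjusted p = 0.00122). The auxiliary Kcnab1, which speeds the inactivation of Kcna channels, was called in both at -0.29 and -0.33. With single arrays left out, the calls of Kcnv1, Kcnb2, Kcnh5 and Kcnq5 held in 10 of 10 fits in both comparisons. Those of Kcna4, Kcnk10 and Kcnt2 held in 10 of 10 without peptide and in 4, 5 and 3 of 10 with it. The call of Kcng1 held in 1 of 10 without and 2 of 10 with peptide, and that of Kcnj3 in 5 and 2 of 10. Those of Kcnab1, Kcnmb1 and Kcnd2 held in 8, 7 and 6 of 10 without peptide and in 4, 3 and 4 of 10 with it. Without peptide, Kcnj13 and Kcnh7 held in 5 and 8 of 10. Calls of Kcnab1, Kcnmb1, Kcnd2, Kcng1 and Kcnj3 were lost without peptide when Xist was a covariate. With peptide they were lost with the replicate number as a block.

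Of the 4 Kcne members, which encode small membrane proteins that change the gating of many pore subunits, Kcne4 and Kcne3 were called higher in some comparisons with injured tissue. Kcne1 and Kcne2 were not called between hemispheres, at -0.08 and 0.05 without and 0.04 and 0.12 with peptide. Kcne4 read 6.12, 6.29, 6.03, 6.43 and 6.77 in the injured arrays without peptide, 5.84, 6.05, 5.70, 5.96 and 6.01 in Vehicle and 5.72, 5.94, 5.92, 5.73 and 6.03 in the uninjured hemisphere. The lowest injured array lay within the range of Vehicle, and the other 4 lay above it. Kcne4 rose by 0.42 ± 0.12 against Vehicle (limma adjusted p = 0.0478), and by 0.39 ± 0.10 with peptide against IDR (adjusted p = 0.0412). With single arrays left out, these calls held in 2 and 3 of 10 fits, and neither held with Xist as a covariate. The second was also lost with arrays centred on the median and with the replicate number as a block. Between hemispheres without peptide the difference of 0.46 ± 0.12 missed the threshold (limma adjusted p = 0.0594) and passed it with the block (adjusted p = 0.0124), with injured above uninjured for 5 of 5 numbers. With peptide the hemispheres differed by 0.31 (limma adjusted p = 0.145).

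Kcne3 was at a low signal and higher in 4 of the 5 injured arrays with peptide, which read 5.37, 6.07, 5.87, 5.88 and 5.94, against 5.32, 5.35, 5.41, 5.46 and 5.27 in the uninjured hemisphere. Array 1 lay among the uninjured ones. Without peptide the injured arrays read 5.33, 5.40, 5.28, 5.26 and 5.89, so that 1 array reached the level of those with peptide. Kcne3 rose by 0.47 ± 0.11 with peptide (limma adjusted p = 0.0395) and differed by 0.09 without it (adjusted p = 0.794). The test of that difference between arms gave 0.38 (95% interval 0.05 to 0.71, limma adjusted p = 1), which is not a call. Its call with peptide held in 1 of the 10 fits that each left out an array and was lost with arrays centred on the median. Against IDR alone, injured tissue with peptide was also called higher for Kcne3, by 0.41 to 0.59 as single arrays were left out. That call held in 2 of those 10 fits and was lost with the replicate number as a block. Pecam1, a marker of endothelium, was higher in the injured hemisphere in both arms, but the endothelial list did not move as 1. Its 9 measured genes ran from -0.31 to 0.39 without peptide and from -0.26 to 0.46 with it. The relation of these markers to the Kcne genes was not tested.

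**Figure D5:**
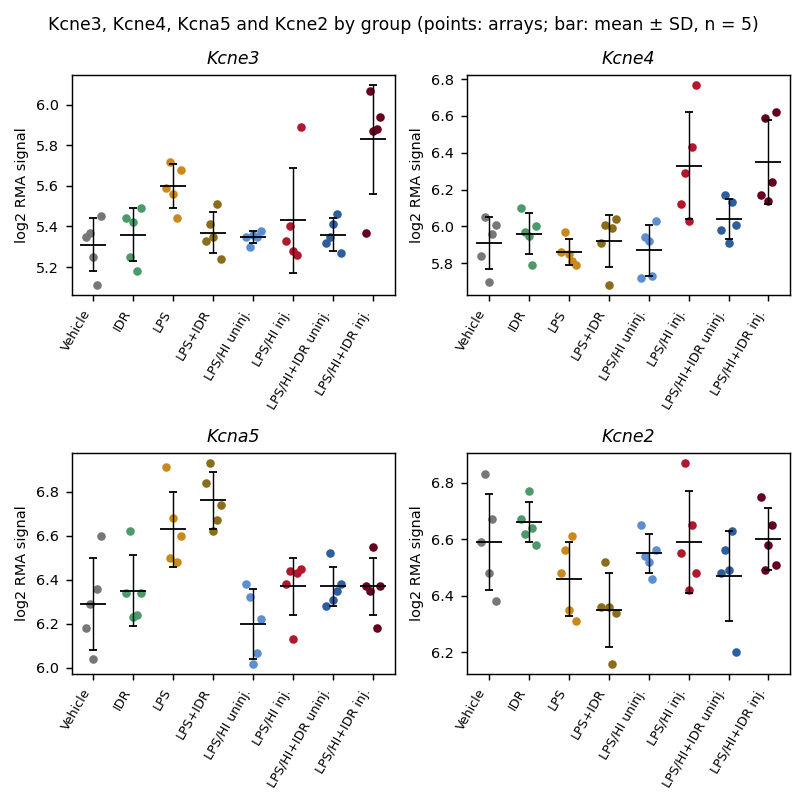
Log2 RMA signal of Kcne3, Kcne4, Kcna5 and Kcne2 in the 8 groups, 1 point per array, with the group mean ± SD (n = 5). Kcne4 is highest in both injured groups at 6.33 and 6.35, Kcne3 in the injured group with peptide at 5.83, and Kcna5 in the groups given LPS without HI at 6.63 and 6.76.

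The uninjured hemisphere of LPS/HI mice was compared with the groups without HI to see what changed away from the injured side. No member was called, without peptide against Vehicle (0.436% of all genes called; at an unadjusted p under 0.05, 6 members or 6.9%, and 1312 genes or 6.58%) or with peptide against IDR (0.201% of genes called; 7 members or 8.05%, and 1052 genes or 5.28%), with limma and with each alternative. The smallest p without peptide were those of Kcng1 (-0.26, limma adjusted p = 0.245) and Kcnk6, a leak channel (0.29, adjusted p = 0.268). With peptide they were those of Kcnh8 (-0.24, limma adjusted p = 0.544) and again Kcnk6 (0.25, adjusted p = 0.603). The intervals excluded differences of the size seen in the injured hemisphere for several genes: for Kcnv1 the 95% interval was -0.25 to 0.11 without peptide, and for Kcna4 -0.09 to 0.19.

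LPS alone addressed inflammation without HI, 6 h after the injection. No member was called by limma, against 0.833% of all genes, while 9 members had an unadjusted p under 0.05, 6 of them higher (6.9% of members, against 2.8% of genes) and 3 lower (3.45%, against 3.42%). Kcne3 had the smallest p, with LPS arrays at 5.59, 5.72, 5.56, 5.44 and 5.68 against Vehicle arrays at 5.35, 5.37, 5.25, 5.11 and 5.45. The highest Vehicle array was above the lowest LPS array by the smallest of margins, and the difference of 0.29 ± 0.07 was not past the threshold (limma adjusted p = 0.142). The second was Kcnd1 (-0.18, limma adjusted p = 0.25). Member differences lay between -0.29 and 0.34 with a median of -0.01, against -0.02 for all genes.

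In mice given IDR-1018 before LPS, 2 members differed from IDR alone, 1 higher (1.15%, against 1.16% of all genes called higher) and 1 lower (1.15%, against 0.311% called lower), where 1.47% of genes were called in all. Each of these member shares is 1 gene. Kcna5, a pore subunit found in vascular smooth muscle and microglia, read 6.84, 6.93, 6.62, 6.67 and 6.74 in LPS+IDR and 6.34, 6.62, 6.23, 6.24 and 6.34 in IDR. One IDR array reached the lowest LPS+IDR array, and the rise was 0.41 ± 0.08 (limma adjusted p = 0.0244). Without peptide, the LPS arrays lay between 6.48 and 6.91 for Kcna5, overlapping Vehicle at 6.04 to 6.60, with a difference from Vehicle of 0.34 ± 0.10 that was not past the threshold (limma adjusted p = 0.322). In the 4 LPS/HI groups, sampled later after LPS, its group means were 6.20 to 6.37, against 6.29 in Vehicle.

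Kcne2, an auxiliary subunit abundant in the choroid plexus, read 6.36, 6.52, 6.36, 6.16 and 6.34 in LPS+IDR, all below the IDR arrays at 6.67, 6.62, 6.77, 6.64 and 6.58. It fell by 0.31 (SE 0.07, limma adjusted p = 0.0352); without peptide the difference was -0.13 (adjusted p = 0.921). The summed signal of the choroid plexus list, which includes Kcne2, overlapped between the groups (12.53 to 12.73 in LPS+IDR, 12.56 to 12.88 in IDR), and Clic6 of that list rose by 0.33 (adjusted p = 0.0198 by limma). With single arrays left out, Kcna5 was called in 3 and Kcne2 in 2 of 10 fits. Over those fits the differences ran from 0.36 to 0.47 for Kcna5 and from -0.35 to -0.26 for Kcne2. With Xist as a covariate neither was called, where 1 IDR array and 2 LPS+IDR arrays were of the Xist class. Kcne2 was also lost with the replicate number as a block and with arrays centred on the median. The cause of these losses was not tested. The interaction of LPS and IDR-1018 called 0 members by limma (0.00502% of genes, a single gene; 4 members at an unadjusted p under 0.05, 4.6%, against 4.38% of genes), with Kcnd1 (0.19) and Kcnk3 (-0.26) at the smallest p.

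IDR-1018 alone, against Vehicle, gave no called member and no called gene (0.0%) with limma, and no member reached an unadjusted p under 0.05, against 321 genes (1.61%). Member differences lay between -0.11 and 0.13. The smallest p were those of Kcnd1 (-0.11, limma unadjusted p = 0.051) and Kcnj5 (0.13, limma unadjusted p = 0.11). For the members the 95% half-width had a median of 0.16, and Kcnv1 and Kcna4 had intervals of -0.15 to 0.17 and -0.12 to 0.20. In mice given LPS, the peptide also gave no call (0.0% of genes by limma; 13 members and 2674 genes at an unadjusted p under 0.05, 14.9% and 13.4%), with Kcnk3, an acid-sensitive leak channel, at -0.24 and Kcne3 at -0.23 (limma adjusted p = 0.326 for both).

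Related genes were measured on the same arrays. Of 14 partner subunits measured, Lrrc55, an auxiliary protein of the large-conductance calcium-activated channel, was lower in the injured hemisphere without peptide (-0.31 ± 0.08, limma adjusted p = 0.0391) and lower in both comparisons of injured tissue with controls (-0.49 and -0.41). No other partner was called in any of the 14 comparisons. Of 15 potassium pumps and cotransporters, Fxyd5, a modulator of the sodium pump, was higher in the injured hemisphere with peptide (0.37 ± 0.06, limma adjusted p = 0.0081) and in both comparisons of injured tissue with controls (0.52 and 0.44). None of the 3 hyperpolarisation-activated HCN channels and none of the 8 sodium channel subunits measured was called in any of the 14 comparisons, and the medians of the sodium channel list between hemispheres were -0.16 without and -0.15 with peptide.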

How the data were processed

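Total RNA of 40 samples was measured on Affymetrix arrays. The deposited values are log2 signals per probe set, normalised by the authors with RMA (robust multi-array average); RMA and the affy package are named in the submitters' processing notes, and their versions and the array annotation's genome build are not given in the sources used here. Of 34760 probe sets, 21640 carry 1 gene symbol in the platform annotation, 1321 several and 11799 none; the 21640 cover 19937 genes, and a gene with several probe sets was read by the one of highest mean (954 genes).

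Each comparison was fitted by limma 3.58.1 (lmFit and eBayes, R 4.3.3) on its own 10 arrays, or 20 for an interaction, with Benjamini-Hochberg adjustment over 19937 genes and a call at an adjusted p under 0.05. The number of arrays limits the precision. Tables and plots were made with pandas 2.3.3 and matplotlib 3.10.9 in Python 3.11.15, and the fits were tested on simulated data. The text names every called member (at most 15 per direction and comparison), the 2 members of smallest p where none was called, the member of highest signal in each subfamily, and up to 3 called genes per related list; marker genes called between hemispheres or between injured tissue and controls are named beyond that rule and were chosen after their values were seen. Members and lists were chosen with earlier results of these data known.

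Same-numbered arrays were checked for pairing by the correlation of their deviations from the group means. Between hemispheres without peptide all 5 were over 0.1 (0.392 to 0.646), as for injured against Vehicle (0.116 to 0.443), and the labels do not say what a number stands for. Alternatives were all 8 groups in the fit, the replicate number as a block, a filter at a mean signal of 6, the mean over probe sets, arrays centred on their median, trended and robust variances, Xist as a covariate and each array left out; the block without both arrays numbered 3 was added after seeing the data.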

Additional observations from a re-analysis of the deposited data

Results flagged for a closer look

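Single arrays that stood apart from the other 4 of their group were looked for in 23 named members over 8 groups, with Dixon's critical value of 0.71 for 5 arrays. Of 184 groups tested, 10 were past it, and chance gives about 1 in 20. No cause was tested for any of them.

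In the injured hemisphere without peptide, Kcnv1 of array 4 read 10.09, with the nearest other array at 9.86, and Kcna5 of array 3 read 6.13, with the nearest at 6.38. Array 5 of that group was high for Kcne3, at 5.89 with the nearest at 5.40, and for Kcnip2, at 9.62 with the nearest at 9.39. In the uninjured hemisphere without peptide, Kcnk2 of array 5 read 9.41, with the nearest at 9.22.

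Array 5 of Vehicle was low for Kcnd2, at 11.21 with the nearest at 11.48, and for Kcnj13, at 8.38 with the nearest at 8.92. Array 4 of Vehicle was low for Kcnj3, at 10.00 with the nearest at 10.14. Array 5 of IDR read 11.25 for Kcnd2, with the nearest at 11.49, and array 5 of LPS+IDR read 9.11 for Kcnc2, with the nearest at 9.17.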

How the results depend on the processing

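No named member changed direction under any alternative. For named members, 438 of their values kept their side of the threshold, 31 lost the call and 1 gained it, and with single arrays left out 501 kept it and 209 lost it. With the replicate number as a block, the members called went from 7 to 21 between hemispheres without peptide (19 with both arrays numbered 3 left out, an alternative chosen after seeing the data), from 9 to 15 with peptide, from 0 to 1 for LPS against Vehicle (Kcne3), from 2 to 1 for LPS+IDR against IDR and from 15 to 5 for injured with peptide against IDR (Kcna4, Kcnb2, Kcnk2, Kcnq5 and Kcnv1). The numbers did not pair the samples by the rule used in the last 4, since at least 1 correlation was under 0.1 in each. Between hemispheres with peptide 3 of 5 were over it (0.094 and 0.088 for the others), and the arrays of all 5 numbers shared their Xist and Y-linked class there, against 4 of 5 without peptide. With the block Kcnd2 and Kcnc2 were also called with peptide (limma adjusted p = 0.0486 and 0.0316), and 12 members were called lower in both arms, 63.2% of 19 and 85.7% of 14. The overlap of all genes called lower in both arms is not given here. The block changed the count for injured against Vehicle from 19 to 20. With all 8 groups in the fit the hemisphere counts were 15 without and 20 with peptide. With Xist as a covariate, LPS+IDR against IDR gave 0, the hemispheres with peptide 16 and injured against Vehicle 9, and with arrays centred on the median LPS+IDR against IDR gave 1. Leaving out single arrays gave 0 to 2 for LPS+IDR against IDR (0 without IDR array 1, 3 or 4 or LPS+IDR array 1 or 5), 2 to 10 between hemispheres without peptide, 2 to 6 with peptide, 8 to 19 for injured against Vehicle and 5 to 15 for injured with peptide against IDR, and 0 in the other comparisons. Without peptide the counts were 5, 2, 5, 5 and 3 without injured arrays 1 to 5, and 3, 3, 10, 3 and 7 without uninjured arrays 1 to 5. With peptide they were 3, 5, 4, 6 and 3, and 2, 4, 5, 4 and 2. The share of all genes called moves with the setting too. Without peptide, 0.813% of genes were called lower unblocked and 3.89% with the block. Most of the other settings are given here without that share, so their member counts do not by themselves describe the channel genes. The cause of the changes in count was not tested. A probe set near the lower end of the signal range, such as that of Kcne3, can understate a change.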
